A study of Mus musculus with 4 samples.

Results

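The constitutive proteasome was followed as 41 genes of 28786 gene names on a mouse expression array. Members were all genes whose array name was Psma, Psmb, Psmc, Psmd, Psme or Psmf followed by a digit, leaving out the 3 immunoproteasome genes Psmb8, Psmb9 and Psmb10. These 41 genes were covered by 63 of 41174 probes, and 62 of the 63 were bright enough to test. All 41 genes therefore passed the filter on dim probes. They comprised 14 genes of the 20S core (7 alpha, 7 beta), 9 of the 19S base, 8 of the 19S lid, 3 base assembly chaperones, 4 activators and 1 inhibitor. A testis-restricted alpha subunit, Psma8, and Psmc3ip made up the rest. Psmc3ip met the naming rule but encodes a partner of the meiotic recombination machinery, not a proteasome subunit, and was kept apart.

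The study compared CD8+ T cells made in culture with CD8+ cells taken from the thymus, both from untreated C57Bl/6 mice. The cultured cells started from 100000 Lin- Sca1+ CD117+ bone marrow cells of mice aged 6 to 8 weeks. They grew for 35 days on OP9-DL1, a stromal line that displays a Notch ligand, in 20% serum with Flt3 ligand (5 ng/ml) and IL-7 (1 ng/ml). Thymus donors were 4 to 5 weeks old, and a sort on CD8 with high TCR beta purified the cells of either kind. Donor age and origin of the cells cannot be told apart. RNA came from 2 thymic and 2 in vitro preps. All 4 pairings of a thymic with an in vitro prep were hybridised, on 1 slide read in 1 scan. Array 1 held thymic prep 1 and in vitro prep 1, array 2 held thymic prep 1 and in vitro prep 2, array 3 held thymic prep 2 and in vitro prep 1, and array 4 held the second prep of each. Thymic RNA carried Cy3 and in vitro RNA Cy5 throughout, so dye and kind of cell cannot be told apart. Because no separate animals are named, p-values cover only the spread from prep to prep. The smallest exact permutation p for 1 gene is 0.333 with 2 preps against 2, so calls rest on variances pooled across genes.

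The proteasome degrades proteins tagged with ubiquitin. Its 20S core is a barrel of alpha and beta rings, with the cutting sites inside, on subunits of the beta rings. The 19S particle caps the barrel: its base binds ubiquitin and unfolds substrates with a ring of ATPases, and its lid removes ubiquitin. Activators of the Psme family can cap the barrel instead. In lymphocytes, and under interferon elsewhere, Psmb8, Psmb9 and Psmb10 replace the standard cutting subunits. Psme1 and Psme2, which together form the PA28 alpha/beta ring, are likewise induced by interferon and favour the production of peptides for MHC class I.

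Promoters are shown for the PA28 family because its 2 interferon-inducible members stood apart from the core in these data while Psme3 did not. Each sequence is the RefSeq window of GRCm38.p6 from 250 bases before to 50 bases after the annotated start. The windows are chr14:55578244-55578543 on the plus strand for Psme1, chr14:55591052-55591351 on the minus strand for Psme2 and chr11:101315963-101316262 on the plus strand for Psme3. Capitals mark a match to the interferon response core, which is GAAA repeated after 2 bases of any kind, read on either strand.
Psme1: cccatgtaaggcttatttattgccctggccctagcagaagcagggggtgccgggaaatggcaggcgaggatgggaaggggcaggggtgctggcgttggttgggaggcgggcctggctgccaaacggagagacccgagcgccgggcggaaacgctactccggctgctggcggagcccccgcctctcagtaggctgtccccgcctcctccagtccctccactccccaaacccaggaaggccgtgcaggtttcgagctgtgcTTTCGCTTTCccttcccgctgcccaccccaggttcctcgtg
Psme2: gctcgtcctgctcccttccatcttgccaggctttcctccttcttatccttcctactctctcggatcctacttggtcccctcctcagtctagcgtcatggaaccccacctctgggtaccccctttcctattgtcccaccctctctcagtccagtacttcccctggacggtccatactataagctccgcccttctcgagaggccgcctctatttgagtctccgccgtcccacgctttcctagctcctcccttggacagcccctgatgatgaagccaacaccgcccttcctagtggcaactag
Psme3: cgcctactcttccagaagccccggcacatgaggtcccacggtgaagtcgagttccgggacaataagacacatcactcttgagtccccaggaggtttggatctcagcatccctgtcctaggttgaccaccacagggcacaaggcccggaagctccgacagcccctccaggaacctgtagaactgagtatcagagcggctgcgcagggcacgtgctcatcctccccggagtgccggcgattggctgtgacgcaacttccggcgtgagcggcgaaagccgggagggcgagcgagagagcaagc

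The match in Psme1 begins at base 10 counted from the annotated start, and neither of 2 Psme2 windows nor the Psme3 window held one. For the promoter search Psme2 took the place of the member Psme2b-ps. Promoter windows were found for 34 of the 41 genes looked for (37 windows). The interferon response core was present in 4 of these genes (Psmb3, Psmd4, Psmd9 and Psme1), or 10.8% of their windows, against 3.44% of 32851 windows of the same length. Of those 4 genes, after loess normalisation, Psme1 was lower and Psmd9 higher in in vitro-derived cells, and Psmb3 and Psmd4 did not pass the test. With median centring in place of loess, Psme1 stood at 0.26. TGANNNNGC, a core of the element read by Nfe2l1 and Nfe2l2, was found in 19 of the 34 genes, Psme2 among them. That was 56.8% of their windows, against 41.3% of all windows. CCAAT was found in 13 of the 34 genes, 35.1% of their windows and 37.4% of all windows. The motifs were searched separately on both strands, so matches may overlap.

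Per array, the Cy3 channel was well above background at 63.7% to 65.6% of 43379 spots other than controls, and the Cy5 channel at 66.5% to 70.9%. All 12 markers of CD8 T cells were well above background in both kinds, with a summed linear level of 463461 to 464170 in thymic preps and 373613 to 422506 in in vitro preps. Of these 12, 7 were lower and 2 higher in vitro, against 25.1% and 26.6% of all genes. Their median log2 difference was -0.58 (0.41 with median centring). Of the stromal markers 14 of 16 were above background in vitro against 8 of 16 in thymic RNA, and their sum was 8880 to 10587 against 2598 to 2679. Of 14 tested 13 were higher in vitro, against 26.6% of all genes. Col5a2, Fn1, Postn, Loxl1, Fbn1 and Thbs1 passed the filter only through the in vitro channel, so this count was partly fixed in advance. Dcn and Lum were not above background in either kind. Thymic epithelial markers summed to 3783 to 3843 in thymic and 3487 to 3524 in in vitro preps, with Foxn1 not above background in either. B cell markers summed to 3725 to 3742 and 3077 to 3432, myeloid markers to 1738 to 1776 and 1857 to 2137, and erythroid markers to 578 to 591 and 592. The part of such cells in the proteasome values was not tested. In such bulk RNA, fewer cells of a type and less RNA per cell cannot be told apart.

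After loess normalisation within each array, the median log2 difference (in vitro-derived minus thymic) was 0.04 over the 41 members and 0.03 over all 19173 genes tested. Loess brings bright genes to a median near 0, and with median centring the members' median was 0.84. Single members ranged from -1.09 to 1.00, and the SD over members was 0.38, against 0.66 over all genes. Of the 41 members 4 (9.76%) changed by at least 1.5-fold and passed the test, against 22.2% of all genes. They were Psma6 and Psmc3ip, which were higher, and Psme1 and Psme2b-ps, which were lower. With median centring Psme1 and Psme2b-ps stood at 0.26 and 0.08.

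By limma with Benjamini-Hochberg adjustment over all genes, 14 members were higher and 6 lower at an adjusted p under 0.05, which is 48.8% of members. The background was 51.7% of all genes called, 26.6% higher and 25.1% lower. The members' share thus lay near the background and is no result about the family. All 20 called members had the same sign on all 4 arrays, but the calls come from these same arrays, so this adds no support to them. Of all members, called or not, 34 had the same sign on all 4 arrays. Psma8, counted among the 14, passed the filter on dim probes only through the in vitro channel. With both channels required to be well above background, 13 of 40 members were higher. Without Psmc3ip and Psma8, 12 were higher and 6 lower, with a median of 0.02. Only 6 were called higher when the background model was fitted on all spots, including those that the scanner software marks as uneven, and 8 with the scanner's own processed signals. In both, 6 were lower. Leaving out thymic prep 1 kept 8 of the 20 calls and leaving out thymic prep 2 kept 7, where the lone thymic prep was assumed to vary like the in vitro preps.

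**Figure D1:**
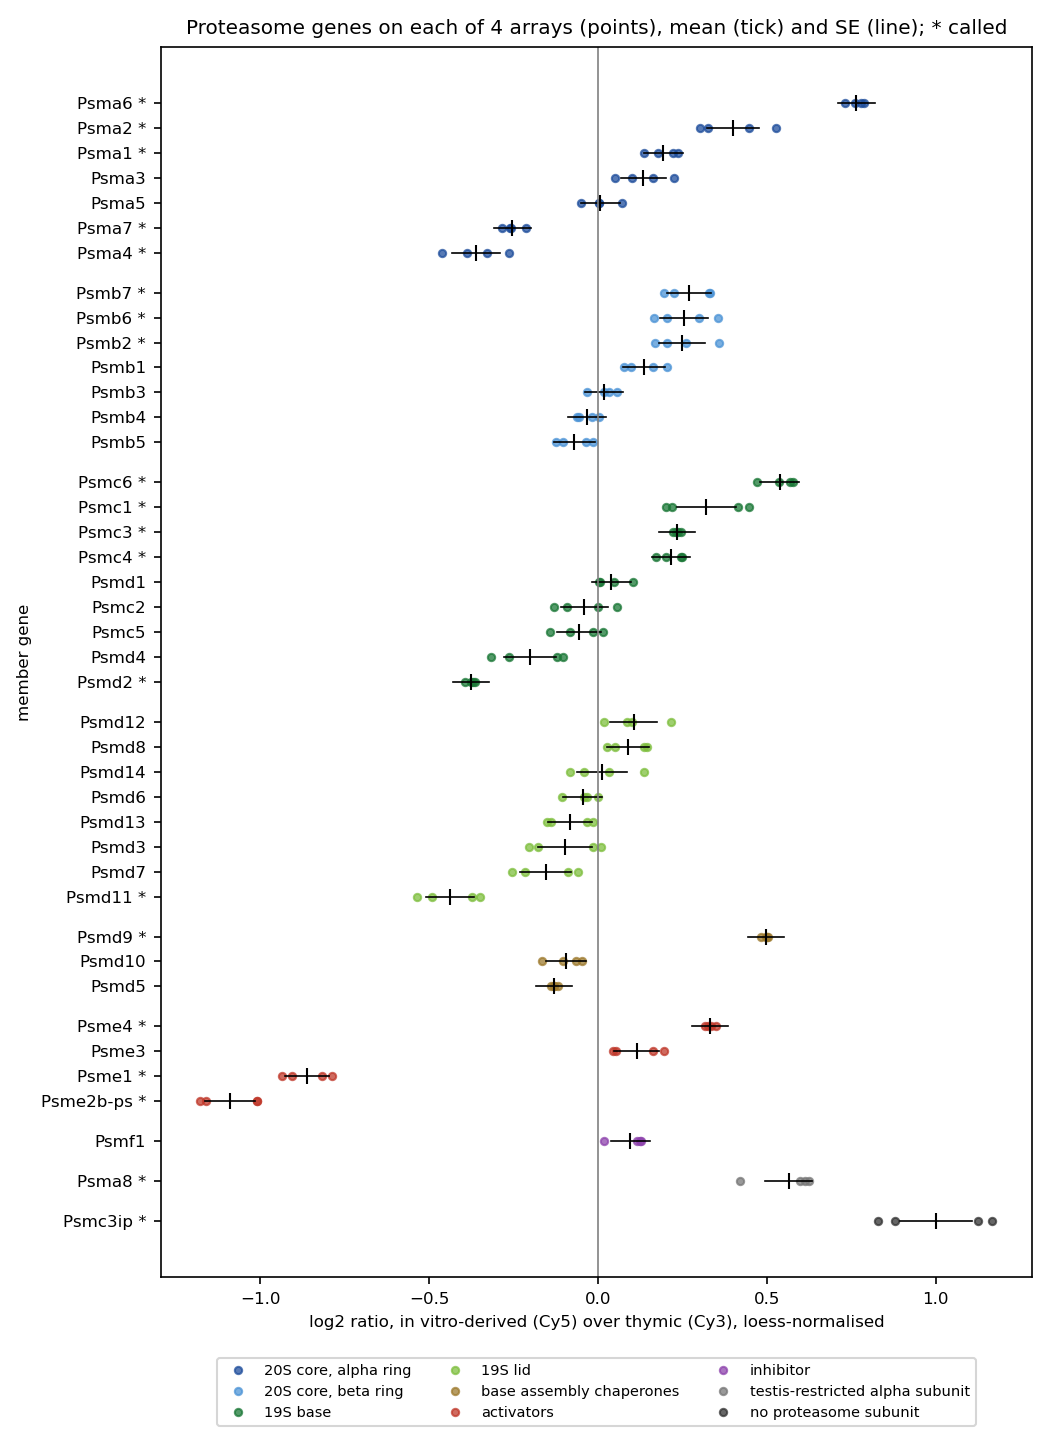
Log2 ratio of in vitro-derived (Cy5) over thymic (Cy3) signal for each member on the 4 arrays (points), with the mean (tick) and its standard error (line), after loess normalisation; stars mark genes with an adjusted p under 0.05. Most members lie within 0.5 of 0, while Psme1 and Psme2b-ps lie near -0.86 and -1.09; with median centring both turn positive, at 0.26 and 0.08.

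The direction of these values depends on how the channels are brought to one scale. With loess, the median difference stayed between -0.01 and 0.05 in each of 10 equal groups of genes by brightness. With each array's log ratios only centred on their median, it climbed from -0.15 among the dimmest genes to 0.89 among the brightest, and the all-gene median moved from 0.03 to 0.34. Proteasome probes are bright: 23 of the 41 members lay in the brightest of these 10 groups and 35 in the 2 brightest. Median centring therefore placed the members' median at 0.84 and called 40 of them higher, against 58.7% of all genes called higher and 70.8% in either direction. Every direction given for a member is that after loess. Where the sign turns, the value with median centring is given with the gene's own result. The activators are also given relative to the core genes on the same array, with ranges for a few other genes.

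**Figure D2:**
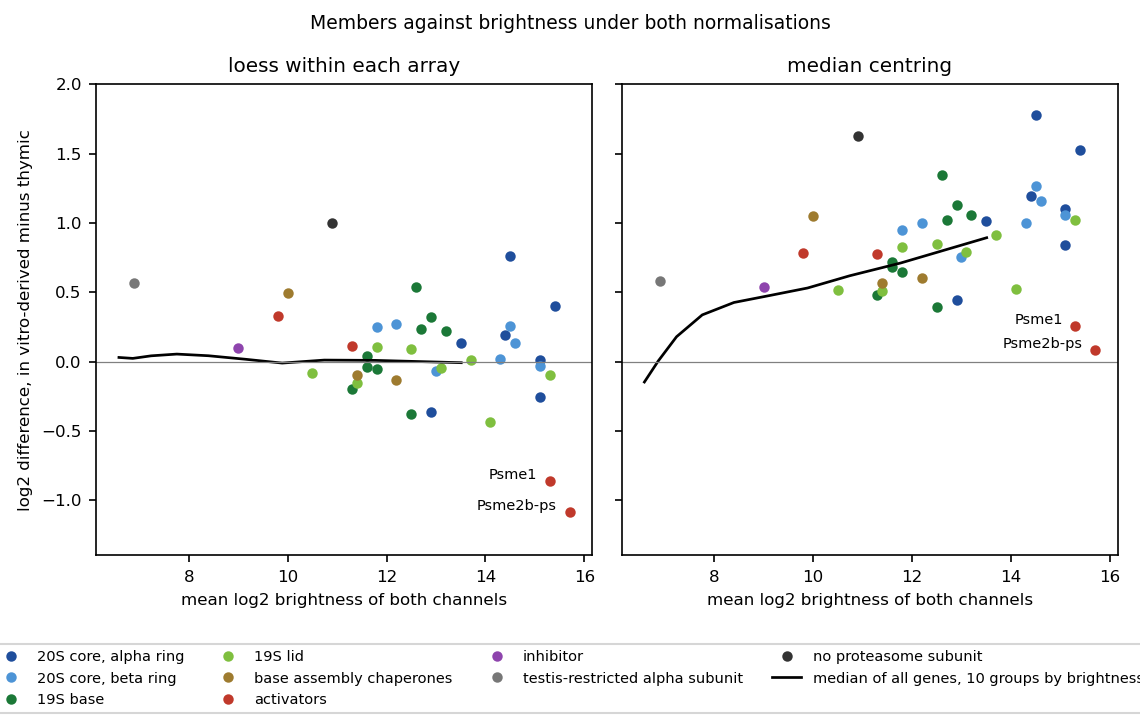
Each member's log2 difference against its mean log2 brightness in both channels, after loess (left) and after median centring (right); the black line joins the medians of all genes in 10 equal groups by brightness. With loess the line stays between -0.01 and 0.05, with median centring it climbs to 0.89, and Psme1 and Psme2b-ps lie lowest among the bright members in both panels.

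After loess, the differences of largest size among proteasome subunits and regulators were in the 2 subunits of PA28 alpha/beta, whereas with median centring theirs were the smallest of the 41 members. Psme1 (NM_011189), the alpha subunit, had log2 levels (after loess and a scaling of the 2 channels to one another) of 15.71 and 15.74 in the thymic preps and of 14.89 and 14.84 in the in vitro preps. Both in vitro preps lay below both thymic preps, by far more than preps of one kind differed. The share of all genes whose preps did not overlap was not counted, but 51.7% of all genes were called. Its log2 ratio was -0.79, -0.91, -0.82 and -0.94 on arrays 1 to 4. The mean, -0.86 ± 0.07 (SE, n = 2 preps of each kind), is 1.82-fold lower, with an adjusted p of 0.00041 in the limma fit.

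The beta subunit was read by 2 probes that the array names Psme2b-ps, after a pseudogene copy. The probes list accessions of Psme2 as well, so the gene and its copy cannot be told apart here. Log2 levels were 16.20 and 16.24 in the thymic preps and 15.08 and 15.19 in the in vitro preps. The log2 ratio was -1.18, -1.01, -1.16 and -1.01 on arrays 1 to 4. The mean of -1.09 ± 0.07 is 2.13-fold lower (adjusted p = 0.00029, limma). The 2 probes gave -0.996 and -1.18, and none of the members' spots was saturated. Both PA28 calls held in all the other settings that kept loess or the scanner's own dye normalisation, with any 1 prep or array left out. With median centring the differences became 0.26 (adjusted p = 0.019) for Psme1 and 0.08 (adjusted p = 0.52) for Psme2b-ps, both below the all-gene median of 0.34.

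Measured against the median of the 14 core genes on the same array, both PA28 subunits were lower in every setting tried. Psme1 lay at -0.93, -1.06, -0.94 and -1.03 relative to the core on arrays 1 to 4, and at -0.998 from the mean values. Over the 18 settings, median centring included, this ranged from -1.05 to -0.78. Psme2b-ps lay at -1.22 relative to the core, with a range of -1.32 to -0.95. The PA28 subunits thus lay below the core under either way of scaling, whereas their difference between the kinds of cells did not keep its sign. This was not particular to PA28. Psmb9 (-0.69 to -0.45), Psmb10 (-0.44 to -0.19) and Psmd11 (-0.64 to -0.39) also lay below the core in all 18 settings. Psma6 (0.62 to 0.75) and Psmb8 (0.07 to 0.38) lay above it in all of them.

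Of the other activators, Psme3, the nuclear homolog PA28 gamma, had log2 ratios of 0.05, 0.16, 0.05 and 0.20 on arrays 1 to 4. Its mean of 0.11 ± 0.07 did not pass the test (adjusted p = 0.22, limma). Relative to the core median it lay at -0.02, with a range over settings of -0.26 to 0.05. Psme4, which encodes PA200, had log2 ratios of 0.35, 0.33, 0.33 and 0.32, all close together. It was 1.26-fold higher at 0.33 ± 0.05 (adjusted p = 0.0051, limma).

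The probes of Psme4 disagreed, and it was the only member of 16 with several tested probes whose probes were called in opposite directions. Of its 4 probes, 3 were higher, at 0.66, 0.61 and 0.28, and the dimmest was lower, at -0.22. Without thymic prep 1 or thymic prep 2 its difference stayed at 0.32 and 0.34, with adjusted p of 0.085 and 0.079. Relative to the core median it lay at 0.20, but at -0.25 with median centring. Psmf1, the inhibitor PI31, had log2 ratios of 0.12, 0.02, 0.11 and 0.13 and did not pass the test, at 0.10 ± 0.06 (adjusted p = 0.22, limma). The 4 activators together held 1 higher and 2 lower genes (75% called, against 51.7% of all genes). Their median of -0.37 became 0.52 with median centring.

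**Figure D3:**
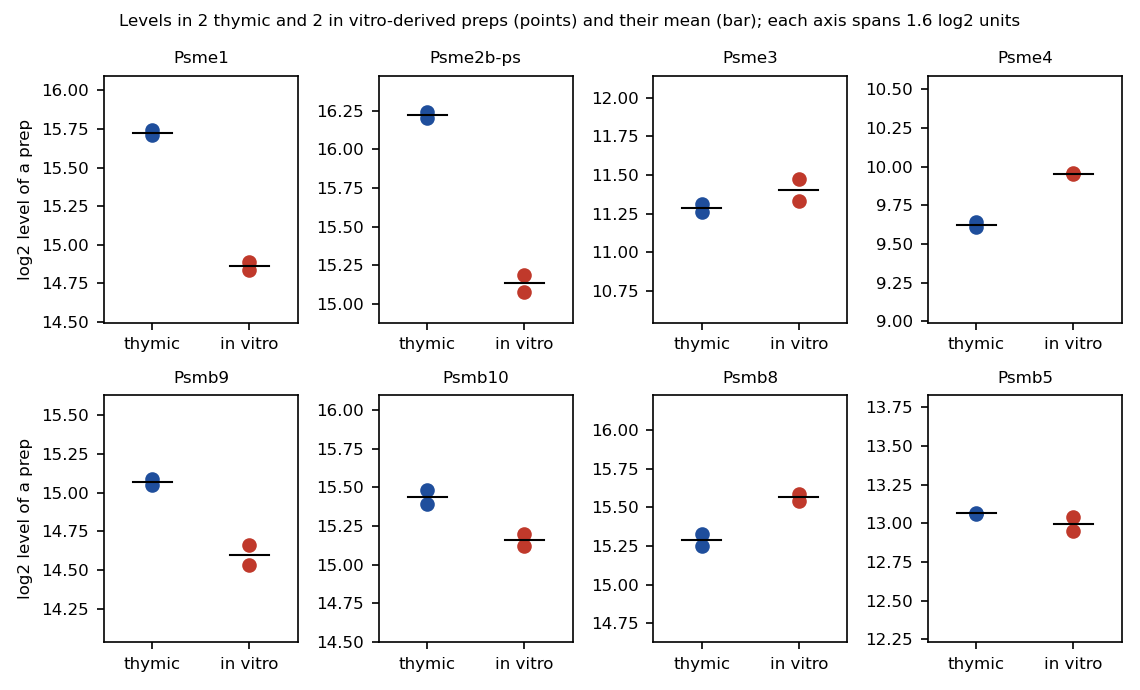
Log2 level of each prep (2 thymic in blue, 2 in vitro-derived in red) and the mean of each kind (bar) for 4 activators, the 3 immunoproteasome genes and Psmb5; every vertical axis spans the same range but starts at another level, and levels are after loess and a scaling of the channels to one another. The groups lie farthest apart for Psme1 and Psme2b-ps, both lower in vitro here, although with median centring they turn to 0.26 and 0.08.

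After loess, the immunoproteasome genes, which the membership rule leaves out, moved less than the PA28 subunits and not in one direction. With median centring all 3 were positive, and each difference was larger than those of Psme1 (0.26) and Psme2b-ps (0.08). Psmb9, the inducible counterpart of Psmb6, had log2 ratios of -0.39, -0.56, -0.39 and -0.56 on arrays 1 to 4. It was lower by limma at -0.48 ± 0.08 (adjusted p = 0.0048), and stood at 0.58 with median centring. Psmb10, the counterpart of Psmb7, was lower at -0.28 ± 0.05 (adjusted p = 0.01, limma), and stood at 0.84 with median centring. Psmb8, the counterpart of Psmb5, was higher at 0.27 ± 0.05 (adjusted p = 0.011, limma) and at 1.41 with median centring. The 4 array values of each gene shared 1 sign, but the calls come from these same arrays. The call of Psmb8 was lost with processed signals (0.21, adjusted p = 0.069). Without thymic prep 1 or 2 the adjusted p was 0.15 and 0.13 for Psmb8 and 0.11 and 0.15 for Psmb10.

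In the alpha ring of the core 3 of 7 genes were higher and 2 lower (71.4% called, against 51.7% of all genes). The median was 0.13 (1.10 with median centring). Psma6 had log2 ratios of 0.79, 0.76, 0.78 and 0.73 on arrays 1 to 4, the highest of any core gene on each. It was 1.7-fold higher, at 0.76 ± 0.05 (adjusted p = 0.00035, limma), and its call held under every setting, median centring included (1.78). Psma2 had ratios of 0.45, 0.30, 0.53 and 0.33, higher on the arrays with in vitro prep 1, and a mean of 0.40 ± 0.08 (adjusted p = 0.0097, limma). Psma1 was higher at 0.19 ± 0.06 (adjusted p = 0.04, limma). Its adjusted p was 0.07 with the background model on all spots and 0.38, 0.19, 0.099 and 0.057 without thymic prep 1, thymic prep 2, in vitro prep 1 and in vitro prep 2.

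Psma4 and Psma7 were the alpha genes that were lower. Psma4 had log2 ratios of -0.39, -0.26, -0.46 and -0.33, and a mean of -0.36 ± 0.07 (adjusted p = 0.0098, limma) on which both of its probes agreed in sign. Psma7 had ratios of -0.26, -0.21, -0.28 and -0.26 and a mean of -0.25 ± 0.06 (adjusted p = 0.014, limma). With median centring they stood at 0.45 and 0.84. Without thymic prep 1 or 2, the adjusted p was 0.061 and 0.079 for Psma2, 0.059 and 0.11 for Psma4 and 0.14 and 0.19 for Psma7, with values of the same sign. Psma3 (0.13) and Psma5 (0.01) did not pass the test.

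In the beta ring 3 of 7 genes were higher and the other 4 were not called (42.9% called, against 51.7% of all genes). The median was 0.14 (1.00 with median centring). The standard cutting subunits are Psmb5, Psmb6 and Psmb7, which provide the chymotrypsin-like, caspase-like and trypsin-like sites. Psmb7 had log2 ratios of 0.19, 0.33, 0.23 and 0.33 and was higher at 0.27 ± 0.07 (adjusted p = 0.02, limma). Psmb6 had ratios of 0.35, 0.21, 0.30 and 0.17 and was higher at 0.26 ± 0.07 (adjusted p = 0.031, limma). Their arrays split by in vitro prep in opposite directions, Psmb7 being higher with prep 2 and Psmb6 with prep 1.

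Psmb5 did not pass the test, with ratios of -0.10, -0.01, -0.12 and -0.04 and a mean of -0.07 ± 0.06 (0.75 with median centring). Psmb4, a structural subunit, had ratios of 0.00, -0.06, -0.02 and -0.06 and a mean of -0.03 ± 0.06 (1.06 with median centring). Psmb2, also structural, was higher at 0.25 ± 0.07 (adjusted p = 0.031, limma), and Psmb1 (0.14) and Psmb3 (0.02) were not called. The 3 higher calls of this ring were lost with the background model on all spots, at adjusted p of 0.13 for Psmb2, 0.06 for Psmb6 and 0.082 for Psmb7. They were lost without thymic prep 1 (0.24, 0.22 and 0.14 in the same order) and without thymic prep 2 (0.16, 0.16 and 0.18). Psmb2 also missed the threshold without in vitro prep 2 (0.066) and Psmb6 without in vitro prep 1 (0.068). Each standard cutting subunit and its inducible counterpart can be set side by side after loess. Psmb5 lay at -0.07 and Psmb8 at 0.27, Psmb6 at 0.26 and Psmb9 at -0.48, Psmb7 at 0.27 and Psmb10 at -0.28. With median centring Psmb5, Psmb9 and Psmb10 turned to 0.75, 0.58 and 0.84. The differences within these pairs were not tested.

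The 19S base held 4 higher and 1 lower gene of 9 (55.6% called, near the 51.7% of all genes). The median was 0.04 (0.72 with median centring). The higher genes were 4 of the 6 ATPases that form the unfolding ring. Psmc6 had log2 ratios of 0.58, 0.57, 0.54 and 0.47 on arrays 1 to 4 and was 1.45-fold higher, at 0.54 ± 0.06 (adjusted p = 0.0013, limma), in every setting. Psmc1 had ratios of 0.22, 0.45, 0.20 and 0.42, higher on both arrays with in vitro prep 2, and a mean of 0.32 ± 0.09 (adjusted p = 0.03, limma). Psmc3 (0.23, adjusted p = 0.017) and Psmc4 (0.22, adjusted p = 0.025) were higher by limma, and Psmc2 (-0.04) and Psmc5 (-0.06) were not called (0.68 and 0.65 with median centring).

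The calls of 3 of these ATPases were lost with the background model on all spots, at adjusted p of 0.088 for Psmc1, 0.056 for Psmc3 and 0.075 for Psmc4. Without thymic prep 1 the adjusted p was 0.15, 0.18 and 0.21 in the same order, and without thymic prep 2 it was 0.14, 0.20 and 0.24. Psmc4 also missed the threshold without in vitro prep 2 (0.065). Psmd2, a large scaffold subunit that binds ubiquitin-like domains, was lower, with ratios of -0.39, -0.37, -0.38 and -0.36. Its mean was -0.38 ± 0.05 (adjusted p = 0.0033, limma), which became 0.40 with median centring. Without thymic prep 1 or 2 its adjusted p was 0.058 and 0.056.

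Psmd4, the ubiquitin receptor Rpn10, had log2 ratios of -0.12, -0.32, -0.10 and -0.26, lower with in vitro prep 2. Its mean of -0.20 ± 0.08 did not pass the test (adjusted p = 0.084, limma), but it passed at -0.29 (adjusted p = 0.02) without in vitro prep 1. With median centring it stood at 0.48. Psmd1, the other large scaffold subunit, stood at 0.04.

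In the 19S lid 1 of 8 genes was lower and the other 7 were not called (12.5% called, against 51.7% of all genes), with a median of -0.06 (0.81 with median centring). Psmd11, a scaffold subunit of the lid, had log2 ratios of -0.35, -0.49, -0.37 and -0.54 on arrays 1 to 4. The arrays with in vitro prep 2 were the lowest, and all 4 lay below 0. Its mean was -0.44 ± 0.07 (adjusted p = 0.0055, limma), from 1 probe, since a further probe was not well above background. Without thymic prep 2 it stood at -0.42 (adjusted p = 0.056), and with median centring at 0.52.

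Psmd7 was the next lowest lid gene, with ratios of -0.09, -0.06, -0.26 and -0.22 and a mean of -0.16 ± 0.07 (adjusted p = 0.14, limma), or 0.51 with median centring. Its lower values came from the arrays with thymic prep 2, mainly through 1 of 3 probes (-0.07, -0.09, -0.545 and -0.58 on arrays 1 to 4). The probes disagreed in sign, with means of -0.32 for that probe and -0.19 and 0.05 for the others. Psmd12 (0.22, 0.09, 0.10 and 0.02, mean 0.11 ± 0.07) and Psmd8 (0.14, 0.05, 0.14 and 0.03, mean 0.09 ± 0.06) were the highest and were not called. Of the 3 probes of Psmd12, 2 lay at 0.25 and 0.23 and the third at -0.16. Psmd14, the deubiquitinase Rpn11 that strips ubiquitin chains from substrates, stood at 0.01, and Psmd3, Psmd6 and Psmd13 lay between -0.10 and -0.04 (1.02, 0.79 and 0.51 with median centring).

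Of the chaperones that assemble the base, Psmd9 was higher and the other 2 were not called (33.3% called, against 51.7% of all genes). Psmd9 had log2 ratios of 0.48, 0.50, 0.50 and 0.50 on arrays 1 to 4, the most even of any called member. It was 1.41-fold higher, at 0.50 ± 0.05 (adjusted p = 0.0013, limma), in every setting. Psmd5 had ratios of -0.12, -0.13, -0.14 and -0.13 and a mean of -0.13 ± 0.05 (adjusted p = 0.097, limma), or 0.60 with median centring. Psmd10, also known as gankyrin, had ratios of -0.05, -0.07, -0.17 and -0.10 and a mean of -0.10 ± 0.06 (adjusted p = 0.24, limma), or 0.57 with median centring.

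**Figure D4:**
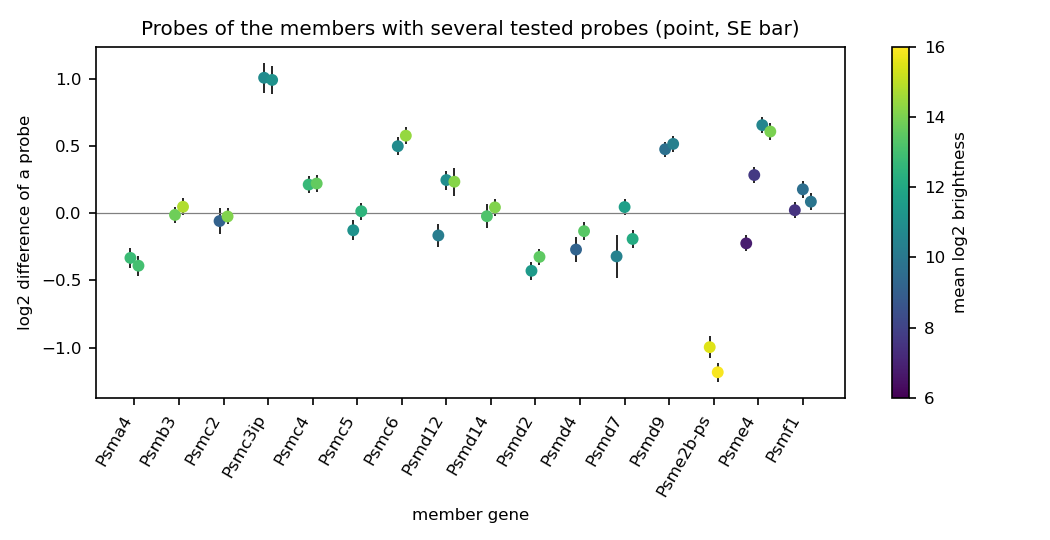
Log2 difference of each tested probe (points, with standard errors) for the 16 members with at least 2 tested probes, coloured by the mean log2 brightness of the probe, after loess. Probes of a gene lie close together for most members, and those of Psme4 spread from -0.22 for the dimmest to 0.66.

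The plot of single probes shows which values rest on agreeing probes. Both probes of Psma4 (-0.39 and -0.33) and both of Psme2b-ps lay on one side of 0, and the 3 probes of Psmf1 lay between 0.02 and 0.18.

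Members of restricted expression were dim. Psma8, the alpha subunit of germ cells, had ratios of 0.42, 0.61, 0.60 and 0.63 and was higher at 0.56 ± 0.07 (adjusted p = 0.002, limma). Its probe was well above background on 2 of 4 arrays in thymic RNA and on all 4 in in vitro RNA. Psma8 thus passed the filter only through the in vitro channel, so its higher call was partly fixed in advance. The call was lost with the background model on all spots (0.44, adjusted p = 0.065), and the value moved to 1.45 with processed signals. Psmb11, the subunit of thymic cortical epithelium, carried a clone name on the array and fell outside the rule. It lay at -0.37, -0.21, -0.19 and -0.20, with a mean of -0.24 ± 0.07 (adjusted p = 0.029, limma). The call was lost with the background model on all spots (adjusted p = 0.12), without thymic prep 1 (-0.19, adjusted p = 0.27), without thymic prep 2 (-0.29, adjusted p = 0.15) and without in vitro prep 2 (-0.28, adjusted p = 0.065). Psmc3ip had ratios of 0.88, 1.17, 0.83 and 1.13 and was higher at 1.00 ± 0.11 (adjusted p = 0.0013, limma) in every setting.

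Preps of one kind differed little for the members. The median size of the difference between the 2 in vitro preps was 0.10 on the log2 scale, and that between the 2 thymic preps 0.04. Over all genes these were 0.09 and 0.05. The in vitro preps differed more than the thymic preps in 31 of 41 members and in 12890 of 19173 genes. Members ranged from -0.19 to 0.29 between in vitro preps and from -0.09 to 0.16 between thymic preps.

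Of 21 assembly factors and associated proteins, 8 were higher and 4 lower, or 57.1% against 51.7% of all genes called, with a median of 0.10 (0.80 with median centring). The highest were Zfand2a, a proteasome adaptor induced by arsenite, at 0.95 ± 0.27 and Txnl1, a thioredoxin-like protein bound to the 19S particle, at 0.59 ± 0.06. Zfand2a differed by -0.81 between in vitro preps 2 and 1 and lost its call without thymic prep 2 (0.81, adjusted p = 0.13) and with processed signals. The lowest were Ddi2, a protease, at -0.57 ± 0.08 and Ubqln1, a shuttle for tagged proteins, at -0.39 ± 0.06. Without thymic prep 1 or 2 the adjusted p of Ubqln1 was 0.058 and 0.051.

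Of 9 regulators of proteasome genes, 4 were higher and 3 lower, or 77.8% against the same 51.7%, with a median of 0.06 (0.70 with median centring). Nfe2l1, the transcription factor that raises proteasome genes when proteasome activity is short, had log2 ratios of -1.41, -1.28, -1.52 and -1.33 on arrays 1 to 4. It was 2.61-fold lower, at -1.39 ± 0.08 (adjusted p = 0.00018, limma), with all 4 arrays far from 0. Ddi2, which cleaves Nfe2l1 into its active form, was the next lowest. Maff, a small Maf partner, was 4.79-fold higher (2.26 ± 0.35), and Bach1, a repressor at the same elements, 2.35-fold higher (1.23 ± 0.16). Nfe2l1, Maff and Bach1 were each read by 1 probe. Maff differed by -0.87 between in vitro preps 2 and 1 and by -0.69 between thymic preps 2 and 1. For Bach1 these differences were -0.47 and -0.05. Nfe2l2 was not called (0.06). In the ubiquitin and p97 list 8 of 19 genes were higher and 4 lower (63.2%), with a median of 0.06 (0.72 with median centring). The polyubiquitin gene Ubb (1.10 ± 0.10) was the highest, and Ube2d1 (-0.67 ± 0.06) and Nsfl1c (-0.28 ± 0.06) were the lowest. Nsfl1c lost its call without thymic prep 1 (0.22), thymic prep 2 (0.076) and in vitro prep 2 (0.068), these being adjusted p.

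The peptide loading list holds genes downstream in the class I pathway. Of its 10 genes 8 were lower and 1 higher, against 25.1% of all genes lower, with a median of -0.77, which became -0.07 with median centring. The lowest were H2-K1, a class I heavy chain, at -1.68 ± 0.06 (3.2-fold lower) and Tap1, a subunit of the peptide transporter, at -1.06 ± 0.06. Tap2, the other subunit, was higher at 0.55 ± 0.13 but not without thymic prep 1 or 2 (adjusted p = 0.058 and 0.072). Canx, a chaperone of the endoplasmic reticulum, was not called (-0.18). In the interferon response list 13 of 14 were lower, against the same 25.1%, with a median of -2.42, and -1.82 with median centring. Ifit1 (-4.39 ± 0.09, 21.0-fold lower) and Oasl2 (-3.38 ± 0.07) were the lowest. Gbp2 (-0.91 ± 0.05) and Irf1 (-0.28 ± 0.12, adjusted p = 0.11) moved least, and Irf1 was called without thymic prep 2 (-0.44, adjusted p = 0.049).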

How the data were processed

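Total RNA of 2 thymic and 2 in vitro-derived preps was amplified and labelled (1 ug each), per the labels' protocols. The authors deposited 1 scanner file per array with spot intensity on a linear scale, as signals and local backgrounds. Per the file headers, the software was Agilent Feature Extraction 9.5.1.1. Their series table gives log10 of the Cy5 to Cy3 ratio, as deposited by the authors: 99.6% of its values equal the scanner's log ratio within 0.0001, and the median of each column is 0. The 6110 to 7222 probes per array that it lists at exactly 0 were left out when it was used.

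Log ratios were computed with limma 3.58.1 in R 4.3.3. The 133 to 187 marked spots per array that were not controls were left out, a choice known from earlier work on these arrays. Background was corrected with normexp (offset 50), then loess was applied within each array with control spots at weight 0. A probe was tested (27250 of 41174) if 1 channel or both exceeded background well on all 4 arrays, and tested probes of a gene were averaged. The 4 ratios were turned into 2 values per kind and fitted with lmFit and eBayes (2 residual and 3.1 prior degrees of freedom). A gene was called at a Benjamini-Hochberg adjusted p under 0.05 over 19173 genes, and errors are standard errors of that fit. The fit from the 4 ratios of a gene to its call was tested on simulated data. Background correction, loess, the filter and the averaging of probes were not.

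Names were updated through RefSeq accessions of GRCm38.p6 (22951 probes matched, 5141 names changed). No build is stated for the array's probes, and coordinates come from the RefSeq promoter table alone. Members and gene lists were chosen with earlier results of these data known. Array values are given for all activators and the inhibitor, for Psma8 and Psmb11, for the 2 highest and 2 lowest genes of each subcomplex, and for members with opposing probes. The 2 highest and 2 lowest genes of every further list are named, and all 3 immunoproteasome genes. Some results, 1 promoter motif among them, are not reported here. Nfe2l2, Psmc3ip and the remaining subunits were added after their values had been seen. Alternatives were the background model on all spots, an offset of 16, processed signals, median centring, the deposited log ratios, marked spots kept, 2 filters on dim probes, the brightest probe of a gene, and each array or prep left out.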

Additional observations from a re-analysis of the deposited data

Results flagged for a closer look

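Among 64 genes looked at, 5 had 1 array set apart from the other 3, which chance alone gives in about 1 of 20 groups. The measure is the gap of that array to its nearest neighbour, divided by the range of all 4. For Psma8 it was 0.8617, with array 1 at 0.42 and the others between 0.60 and 0.63. For Psmf1 it was 0.8877, with array 2 at 0.02 and the others between 0.11 and 0.13. For Psmb11 it was 0.8898, with array 1 at -0.37 and the others between -0.21 and -0.19. For Tap1 it was 0.881, with array 3 at -1.12 and the others between -1.05 and -1.04. For Oasl2 it was 0.8674, with array 2 at -3.23 and the others between -3.44 and -3.41. Each array shares its thymic prep with 1 other array and its in vitro prep with another.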

How the results depend on the processing

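Median centring in place of loess changed most. It called 40 members higher and 0 lower by limma, all 41 differences lying above 0, and moved the members' median to 0.84. The medians became 1.10 for core alpha, 1.00 for core beta, 0.72 for the base, 0.81 for the lid and 0.52 for the activators. Of all calls 82.9% were then higher, against 46.2% to 51.9% in the other settings. Signs turned for Psma4 (0.45), Psma7 (0.84), Psmb4 (1.06), Psmb5 (0.75), Psmc2 (0.68), Psmc5 (0.65), Psmd2 (0.40), Psmd3 (1.02), Psmd4 (0.48), Psmd5 (0.60), Psmd6 (0.79), Psmd7 (0.51), Psmd10 (0.57), Psmd11 (0.52), Psmd13 (0.51), Psme1 (0.26), Psme2b-ps (0.084), Psmb9 (0.58), Psmb10 (0.84), Ubqln1 (0.16), Nsfl1c (0.50), Canx (0.56) and Irf1 (0.58), and for Psme4 relative to the core median (-0.25). Ddi2 (-0.17) and Gbp2 (-0.17) lost their calls.

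Other settings moved counts but turned no called member. Members called higher numbered 6 with the background model on all spots and with marked spots kept, and 8 with processed signals and with the deposited log ratios. The members' median was 0.019 with processed signals and the deposited log ratios and 0.023 with marked spots kept. The activators' median was -0.36 with an offset of 16 and -0.41 with processed signals and the deposited log ratios. Of the 20 called members 6 kept their call in all settings other than median centring: Psma6, Psmc6, Psmd9, Psmc3ip, Psme1 and Psme2b-ps.

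With each array or prep left out in turn, all genes called ranged from 5603 to 9761, members called higher from 5 to 14 and lower from 2 to 7. The members' median ranged from 0.03 to 0.06, core alpha from 0.07 to 0.19, core beta from 0.09 to 0.18, the base from 0.02 to 0.08, the lid from -0.09 to -0.02 and the activators from -0.38 to -0.37. The lowest counts came without a thymic prep, where the lone prep was assumed to vary like the other kind. Preps were not analysed as pairs, since each was hybridised with both preps of the other kind. Donors of the 2 kinds also differed in age. The number of preps limits precision, and the dim probes of Psma8 and Psmb11 limit their values.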
